A study of Mus musculus with 12 samples.

Results

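Chemokines are small secreted proteins that guide migrating leukocytes, and chemokine receptors are the G protein-coupled receptors through which cells sense them. The names of the families (CC, CXC, CX3C and XC) describe the spacing of conserved cysteines in the ligand, and several ligands often share a receptor. In lung tumours these genes are known for recruiting monocytes, neutrophils, regulatory T cells and effector T cells, and for holding T cells in the tissue. The 52 genes described here are all the symbols of a 770-gene mouse immune panel that begin with Ccl, Cxcl, Cx3cl, Xcl, Ccr, Cxcr, Cx3cr or Xcr, except Cxcl15. They comprise 34 ligands and 18 receptors, and Ccrl2, an atypical receptor for chemerin, is counted among the receptors. All 52 symbols matched a RefSeq gene of mouse build GRCm38.p6, with 13 genes on chromosome 11, 12 on chromosome 9, 10 on chromosome 5 and 5 on chromosome 1.

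RNA of purified tumour-infiltrating T cells and macrophages was counted with NanoString probes, which bind transcripts without amplification. All mice carried the KrasTrp53 genetically engineered tumour model on a mixed strain background. They received ricolinostat, a histone deacetylase inhibitor, JQ1, a bromodomain inhibitor that blocks readers of acetylated histones, or vehicle. The 6 groups were ricolinostat macrophages, JQ1 macrophages, vehicle macrophages, ricolinostat T cells, JQ1 T cells and vehicle T cells, with 2 libraries each. The labels give no age, dose or duration of treatment, no markers used for purification, and no statement that the 2 libraries of a group came from separate animals. The p-values therefore cover only the scatter between libraries, part or all of which may be technical.

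Macrophage libraries held between 774000 and 1540000 estimated counts above background and T cell libraries between 1450000 and 2080000, and a signal of 20 corresponded to between 2.70 and 14 counts. Between 28 and 43 of the 52 chemokine genes exceeded a signal of 20 in a library, and 23 did so in all 12. Ccl19, Ccr3, Cxcr5 and Xcr1 never did, and Ccl20 and Ccl28 did so in 1 library. Both libraries labelled JQ1 T cells went against their label, because only between 3 and 6 of 19 T cell markers exceeded 20 there, against 19 of 19 in both ricolinostat and both vehicle T cell libraries. Cd3e, which forms part of the antigen receptor of T cells, had signals of 4.42 and 1.55 in the JQ1 libraries, against 432 and 563 in the vehicle T cell libraries. Macrophage markers were abundant in every library, with 17 or 18 of 18 above 20. Their summed signal ran from 1224680 to 1372690 in the macrophage libraries and from 891857 to 1429290 in the T cell libraries. Replicate 2 of ricolinostat stood apart in both cell types: the log2 signals of the 52 genes differed from those of replicate 1 with an SD of 2.65 in macrophages and 2.27 in T cells, against 0.509 to 1.16 in the other groups. In such bulk samples fewer cells of a type and less RNA per cell cannot be told apart.

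Promoter sequences are shown for 4 genes that fell steeply in the JQ1 T cell libraries, the receptors Cxcr6, Cxcr3 and Ccr4 and the ligand Xcl1. Each runs from 250 bases before to 50 bases after the annotated start in RefSeq (GRCm38.p6), 5′ to 3′ on the gene's own strand, with the 50 bases from the start in capitals. The Cxcr6 promoter lies at chr9:123806227-123806526 on the plus strand. Those of Cxcr3 at chrX:101734098-101734397, Ccr4 at chr9:114496495-114496794 and Xcl1 at chr1:164935473-164935772 lie on the minus strand. Each gene has 1 start in the table used.
Cxcr6: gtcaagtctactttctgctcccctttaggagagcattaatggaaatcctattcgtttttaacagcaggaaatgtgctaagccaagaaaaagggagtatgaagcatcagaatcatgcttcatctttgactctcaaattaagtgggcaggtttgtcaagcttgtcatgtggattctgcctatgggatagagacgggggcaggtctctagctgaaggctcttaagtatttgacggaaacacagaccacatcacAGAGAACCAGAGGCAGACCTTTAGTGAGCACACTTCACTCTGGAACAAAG
Cxcr3: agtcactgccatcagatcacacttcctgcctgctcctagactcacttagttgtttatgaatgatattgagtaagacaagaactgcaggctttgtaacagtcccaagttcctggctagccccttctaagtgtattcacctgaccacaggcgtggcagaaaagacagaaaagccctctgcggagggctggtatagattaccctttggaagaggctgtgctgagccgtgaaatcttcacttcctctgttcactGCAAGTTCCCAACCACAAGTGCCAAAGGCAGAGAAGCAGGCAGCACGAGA
Ccr4: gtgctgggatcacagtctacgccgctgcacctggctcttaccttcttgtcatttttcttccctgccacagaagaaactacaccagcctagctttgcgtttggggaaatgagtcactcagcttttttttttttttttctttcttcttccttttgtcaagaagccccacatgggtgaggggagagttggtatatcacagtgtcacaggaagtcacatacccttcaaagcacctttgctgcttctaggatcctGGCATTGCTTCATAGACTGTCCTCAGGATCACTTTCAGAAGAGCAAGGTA
Xcl1: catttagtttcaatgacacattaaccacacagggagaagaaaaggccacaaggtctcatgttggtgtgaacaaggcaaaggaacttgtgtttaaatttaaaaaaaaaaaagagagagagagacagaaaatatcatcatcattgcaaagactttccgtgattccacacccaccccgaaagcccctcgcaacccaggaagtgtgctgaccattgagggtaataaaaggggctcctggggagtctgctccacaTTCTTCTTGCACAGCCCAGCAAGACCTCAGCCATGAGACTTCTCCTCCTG

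**Figure D1:**
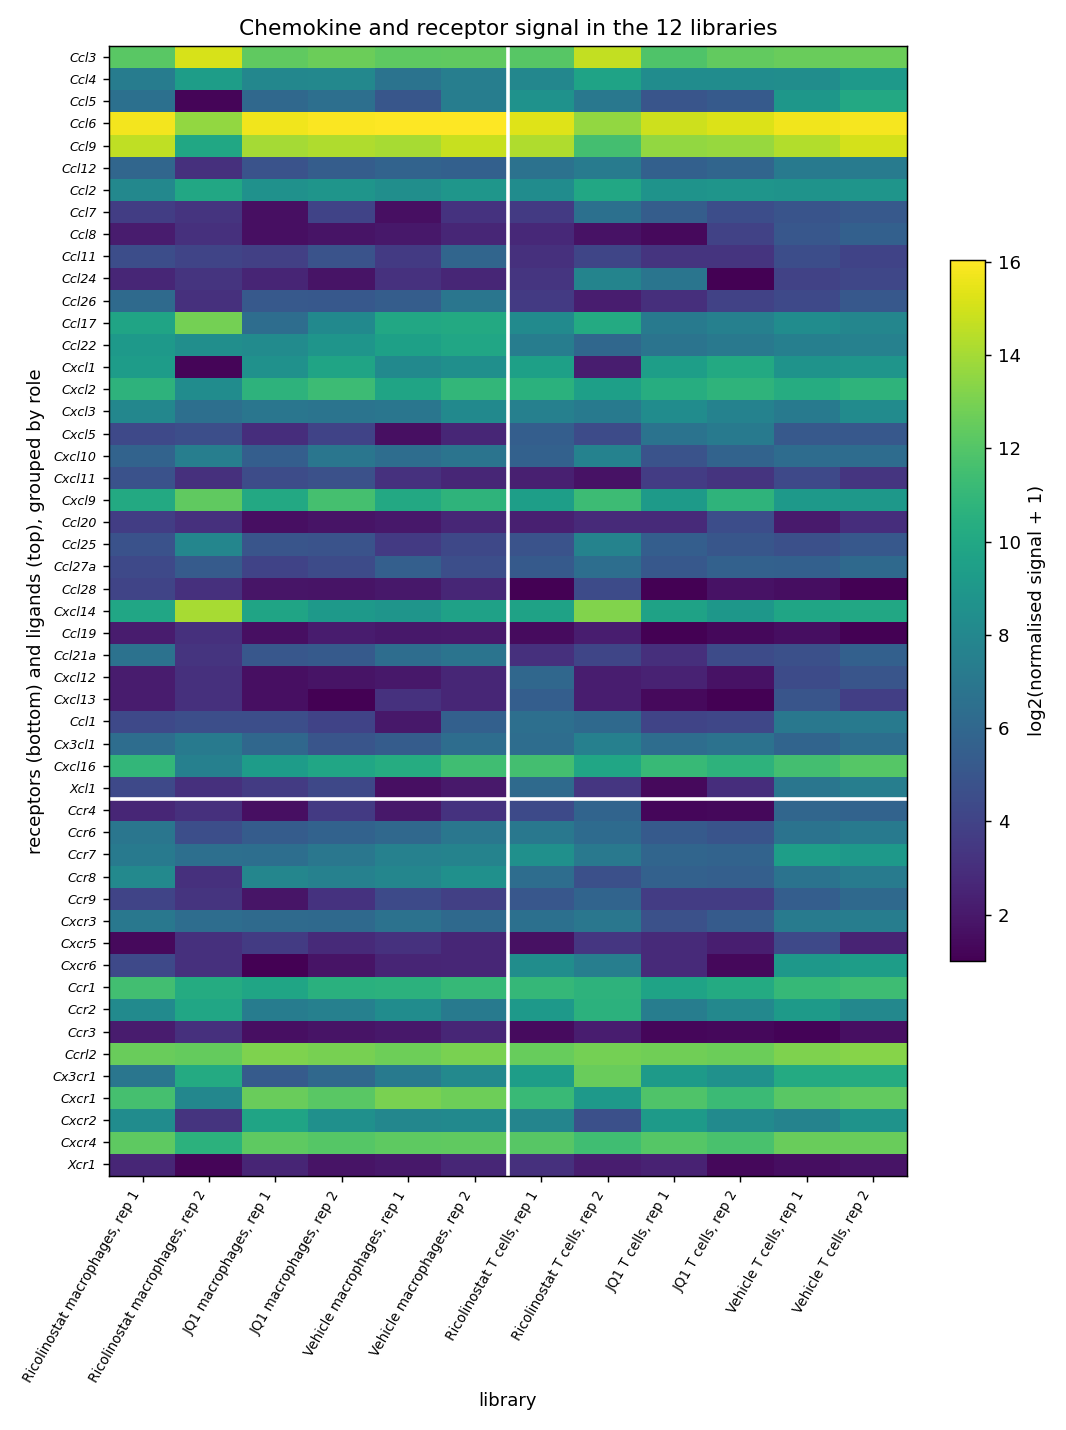
Signal of chemokine and receptor genes (rows, ligands above the line and receptors below it) in the 12 libraries (columns, macrophages left and T cells right), coloured by log2(normalised signal + 1). Cxcr6 and Ccr4 are darker in both JQ1 T cell columns than in both vehicle T cell columns. The replicate 2 columns of ricolinostat differ from replicate 1 in both cell types.

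The comparison of JQ1 with vehicle asks how bromodomain inhibition altered these genes in each purified population. In T cells the receptors that lymphocytes use stood lowest, with a median log2 difference of -2.22 over the 8 tested: Cxcr6, Ccr7, Cxcr3, Ccr4, Ccr6, Ccr8 and Ccr9 fell. Of the 44 chemokine genes with a signal above 20 in at least 2 of the 8 libraries fitted, 14 fell and 0 rose (limma on log2(signal + 1), adjusted p below 0.05), where 15.8% of all 640 genes tested fell and 4.22% rose (20% in either direction). By class 9 of 15 receptors and 5 of 29 ligands fell. Among the 14, Cxcr6, Ccr4, Ccr9, Xcl1 and Cxcl12 exceeded 20 in these 8 libraries only in vehicle T cells. They entered the test through the group where they were high, so they could not have come out as higher under JQ1. The median log2 difference was -0.89 over the 44 genes and -0.37 over all genes tested, so the median gene of the panel was lower in the JQ1 libraries as well. Both JQ1 libraries lay below both vehicle libraries for 32 of the 44, where 54.4% of all genes did, and above them for 3, where 13% did.

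Cxcr6, the receptor for Cxcl16 on resident and effector T cells, had signals of 5.84 and 1.55 in the JQ1 T cell libraries, against 508 and 667 in the vehicle T cell libraries. Both JQ1 values lay below 20, as did those of all 6 macrophage libraries, and Cxcr6 was at least 27.8-fold lower than under vehicle (fitted log2 difference -7.13 ± 0.52 SE, limma adjusted p = 0.00164). The bound takes the vehicle mean of log2(signal + 1) over a signal of 20 on that scale, because fitted differences of genes under 20 in a whole group depend on the pseudocount. Ccr7, which directs T cells and dendritic cells to lymph nodes, had 60.03 and 54.9 under JQ1, against 684 and 551 under vehicle. The groups did not overlap, at a log2 difference of -3.40 ± 0.23 (SE, limma adjusted p = 0.00164). Cxcr3, the receptor of effector T cells for Cxcl9 to Cxcl11, had 25.8 and 39.4 under JQ1, against 152 and 168 under vehicle. Its log2 difference was -2.29 ± 0.28 (SE, limma adjusted p = 0.00606), again without overlap.

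Ccr4, a receptor of regulatory and type 2 helper T cells, had 1.43 and 1.55 under JQ1, against 61.9 and 53.3 under vehicle. It was therefore at least 2.78-fold lower (limma adjusted p = 0.0126). Ccr8, carried by regulatory T cells in tumours, had 50.05 and 45.6 under JQ1, against 107 and 151 under vehicle, a log2 difference of -1.39 ± 0.29 (SE, limma adjusted p = 0.0275). Ccr6, the Ccl20 receptor, had 37.2 and 28.6 under JQ1, against 107 and 142 under vehicle. Ccr9, the Ccl25 receptor, had 11.6 in both JQ1 libraries, against 44.3 and 68.1 under vehicle, and was at least 2.66-fold lower. Neither gene's groups overlapped, and the limma adjusted p was 0.0214 for Ccr6 and 0.0331 for Ccr9.

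Among the ligands that passed, Xcl1 and Ccl5, which T cells themselves secrete, stood lowest. Xcl1, the attractant of cross-presenting dendritic cells that activated T and NK cells release, had 1.57 and 6.93 under JQ1, against 119 and 172 under vehicle, at least 6.85-fold lower (limma adjusted p = 0.00517). Ccl5, an attractant of T cells and monocytes, had 30.1 and 37.9 under JQ1, against 500.2 and 1071 under vehicle. The groups were far apart, with a log2 difference of -4.40 ± 0.81 (SE, limma adjusted p = 0.0202). Cxcl12, the Cxcr4 ligand of stromal cells, had 4.42 and 2.29 under JQ1, against 20.8 and 30.0 under vehicle, and was at least 1.24-fold lower (limma adjusted p = 0.00809). Ccl12, a mouse ligand of Ccr2, had 47.2 and 58.0 with JQ1, against 148 and 155 under vehicle, with a log2 difference of -1.52 ± 0.23 (SE, limma adjusted p = 0.0126).

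Smaller differences passed in 3 genes of high signal that myeloid cells express. Ccl6, a mouse CC chemokine made by macrophages, had 29963 and 39002 under JQ1, against 54807 and 58798 under vehicle (log2 difference -0.73 ± 0.19 SE, limma adjusted p = 0.0457). Ccr1, the receptor of several inflammatory CC ligands, had 853 and 1158 under JQ1, against 2113 and 2689.9 under vehicle (-1.26 ± 0.32 SE, limma adjusted p = 0.0447). Cxcr4, the Cxcl12 receptor, had 4299.6 and 3385 under JQ1, against 6291 and 6268 under vehicle (-0.72 ± 0.18 SE, limma adjusted p = 0.0422). The 3 calls sat close to the threshold: Ccl6 and Cxcr4 lost it after scaling to the housekeeping genes, and Ccl6, Cxcr4 and Ccr1 after centring each library on its median.

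Several other genes of monocytes and macrophages did not pass. Ccl9, a relative of Ccl6, had 12533 and 13261 in JQ1 T cells, against 20572 and 33879 in vehicle T cells (-1.03 ± 0.33 SE, limma adjusted p = 0.0779). Cx3cr1, the fractalkine receptor of monocytes and macrophages, had 578 and 391 with JQ1, against 1149.9 and 1200.2 with vehicle (-1.30 ± 0.42 SE, limma adjusted p = 0.0764). Neither overlapped between treatments. Ccl2, the main monocyte attractant, had 429 and 462 with JQ1, against 428 and 449 with vehicle, and its receptor Ccr2 had 167 and 254 with JQ1, against 584 and 263 with vehicle. Cxcl16, the Cxcr6 ligand, had 2252 and 1719 with JQ1, against 2964 and 4300.3 with vehicle. Only Ccl2 overlapped among these 3, and its difference was 0.02 ± 0.20 (SE). Ccl17 and Ccl22, the Ccr4 ligands, had differences of -0.72 ± 0.57 and -0.61 ± 0.25 (SE), with all JQ1 values below the vehicle values. The lowest difference that did not pass belonged to Ccl1, the Ccr8 ligand, with 15.8 and 17.8 under JQ1 and 128 and 142 under vehicle. It was at least 6.48-fold lower, but its difference of -2.94 ± 1.13 (SE) did not pass (limma adjusted p = 0.123).

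None of the 4 ligands of Cxcr2 passed, and their median log2 difference was 0.62. Cxcl5, an epithelial attractant of neutrophils, had 104 and 145 under JQ1, against 36.5 and 34.2 under vehicle. Both JQ1 libraries were higher, at a log2 difference of 1.77 ± 0.47 (SE), but the limma adjusted p of 0.0525 missed the threshold and passed it under centring, housekeeping scaling and quantile normalisation. Cxcl1 had 692 and 1139 with JQ1, against 428 and 466 under vehicle, without overlap (0.99 ± 0.45 SE, limma adjusted p = 0.172, past the threshold under quantile normalisation). Cxcl2 had 1306 and 1767 under JQ1, against 1258 and 1784 under vehicle, so the groups overlapped. Their receptor Cxcr2 had 576 and 288 under JQ1, against 213 and 430.0 under vehicle, and overlapped too. Cxcl9, the Cxcr3 ligand induced by interferon-gamma, had 586 and 1763 under JQ1, against 553 and 512 under vehicle. The JQ1 libraries differed widely from each other, and the Cxcl9 difference of 0.93 ± 0.70 (SE, limma adjusted p = 0.392) did not pass. That SE rests on the spread within all 4 groups fitted. Cxcl10, another Cxcr3 ligand, had 27.2 and 54.9 under JQ1, against 79.5 and 78.7 under vehicle, and Cx3cl1, fractalkine, had 82.8 and 99.7 under JQ1, against 56.0 and 87.2 under vehicle.

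As over all genes tested, the number of chemokine genes called depended on single libraries. Leaving a library out leaves 1 in its group, which is then assumed to vary like the other groups. The count was 0 without vehicle T cell replicate 1 (limma adjusted p = 0.0509 for Ccr7 and 0.0872 for Cxcr3) and 1, Ccr7, without vehicle T cell replicate 2, where 38 of the 44 genes still reached 20 in 2 libraries. With the same 44 genes kept in the fit, a setting chosen after the data were seen, 5 chemokine genes passed without vehicle T cell replicate 1, 4 without vehicle T cell replicate 2, 5 without JQ1 T cell replicate 1 and 7 without JQ1 T cell replicate 2, always in place of 14. Among the 8 libraries Cxcr6 and Xcl1 exceeded 20 only in the 2 vehicle T cell libraries. Without either of these the filter dropped both genes, so that setting kept them by using the library left out. All 19 T cell markers fell in the same comparison, with a summed signal of 355 to 411 under JQ1, against 6608 to 6897 under vehicle. Of the 3 epithelial markers 2 rose, with a summed signal of 16096 to 16246 under JQ1, against 6442 to 7365 under vehicle. Of the NK cell markers 2 of 6 tested fell, of the macrophage markers 1 of 18, of the dendritic cell markers 1 of 3 and of the B cell markers 1 of 4. Of the 11 stromal and endothelial markers tested 2 fell and 1 rose. The part of these shifts in the chemokine results was not tested.

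**Figure D2:**
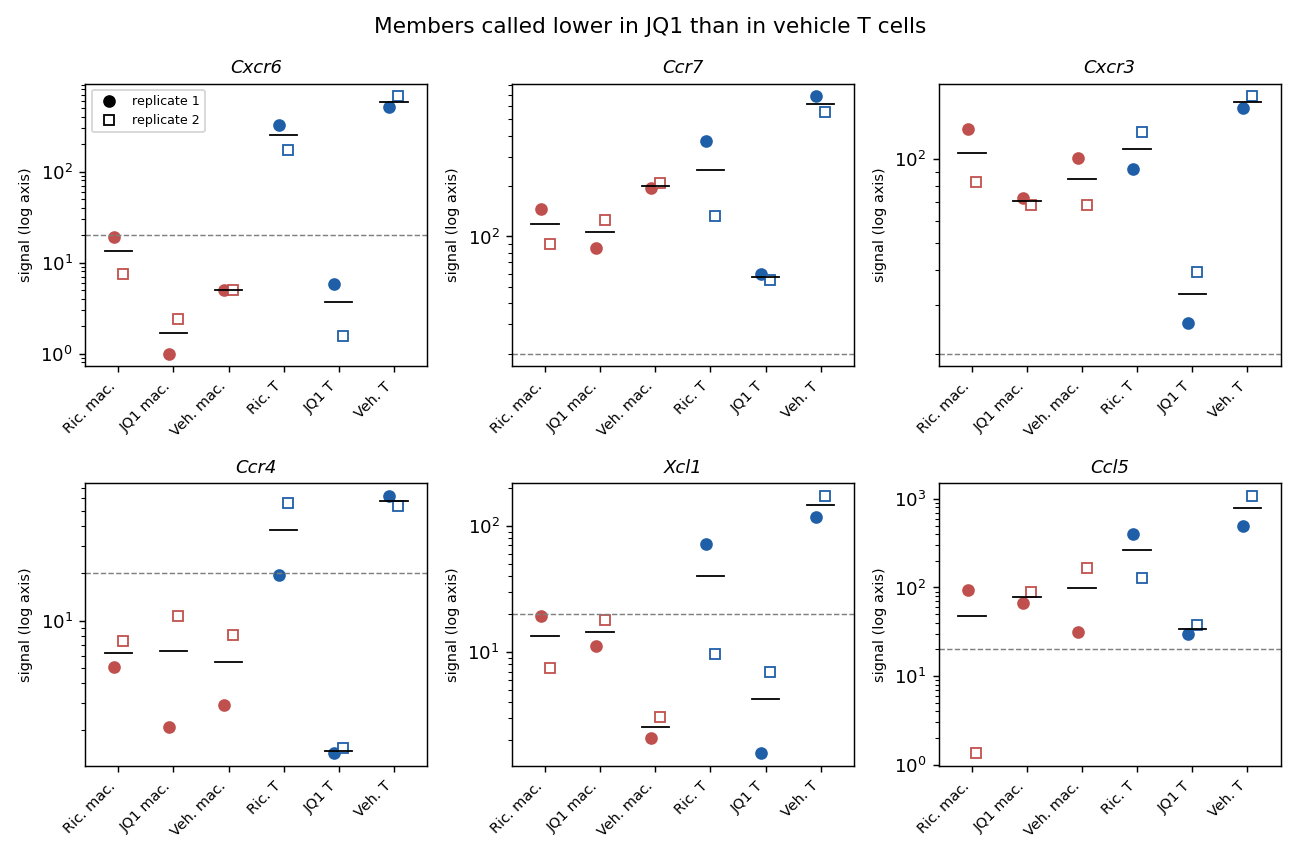
Normalised signal (log axis) of 6 genes that passed the test as lower in JQ1 than in vehicle T cells, in ricolinostat (Ric.), JQ1 and vehicle (Veh.) macrophages (red) and T cells (blue). Circles are replicate 1, squares replicate 2, bars the arithmetic mean of the 2 libraries and the dashed line a signal of 20; for Cxcr6 both JQ1 T cell libraries lie below 20 and both vehicle T cell libraries above 20.

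In macrophages no chemokine gene passed the test between JQ1 and vehicle. Limma called 0 of 44, where 0.469% of all 640 genes passed (0.156% higher and 0.312% lower), and 13 of the 44 had an unadjusted p below 0.05, as did 128 of all genes. Other normalisations, the fit of all 12 libraries and limma's trended, robust variances also gave 0. The median log2 difference was -0.25 over the 44 genes and -0.24 over all genes tested. Both JQ1 libraries lay below both vehicle libraries for 18 of the 44, where 42.7% of all genes did, and above them for 7, where 10.2% did.

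The smallest p-values belonged to the Ccr4 ligands of macrophages and dendritic cells. Ccl17 had 80.9 and 275 in JQ1 macrophages, against 1023 and 1100.0 in vehicle macrophages. The libraries did not overlap (-2.82 ± 0.57 SE, limma adjusted p = 0.101), and Ccl17 passed at -3.70 without JQ1 macrophage replicate 2 with the genes tested held fixed (limma adjusted p = 0.0256). Ccl22 had 305 and 451 under JQ1, against 747 and 939 under vehicle, also without overlap (-1.17 ± 0.25 SE, limma adjusted p = 0.110). Cx3cr1 had 38.6 and 65.9 under JQ1, against 138 and 265 under vehicle (-1.90 ± 0.42 SE, limma adjusted p = 0.111). Neither it nor Ccl22 overlapped between treatments.

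On the higher side, Cxcl11, an interferon-induced Cxcr3 ligand, had 21.7 and 25.1 under JQ1, against 7.86 and 5.03 under vehicle (limma adjusted p = 0.114). Ccl25 had 30.2 and 27.5 under JQ1, against 10.8 and 18.2 under vehicle (0.99 ± 0.32 SE, limma adjusted p = 0.184). Both genes were below 20 in both vehicle libraries and little above it under JQ1. Xcl1 had 11.1 and 17.8 under JQ1, against 2.06 and 3.06 under vehicle, all below 20. The most abundant signals moved little. Ccl6 had 53494 and 63425 under JQ1, against 65059 and 67246 under vehicle, and Ccl9 had 16749.7 and 19775 under JQ1, against 17052 and 27627 under vehicle. Their log2 differences were -0.18 ± 0.19 and -0.25 ± 0.33 (SE).

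Among other receptors, Ccr1 had 910.4 and 1470.5 in JQ1 macrophages, against 1623 and 2131 in vehicle macrophages (-0.68 ± 0.32 SE). Ccr2, the monocyte receptor for Ccl2, had 161 and 189 with JQ1, against 312 and 139 under vehicle, with overlap. Cxcr2 had 887 and 374 under JQ1, against 246 and 285 under vehicle, a difference of 1.12 ± 0.59 (SE, limma adjusted p = 0.346). Cxcr4 had 5161 and 4373 under JQ1, against 5041 and 5337 under vehicle, and overlapped. Among the ligands, Ccl2 had 392 and 460.4 under JQ1, against 347 and 471 under vehicle. Cxcl16 had 642 and 944 with JQ1, against 1249 and 2705 under vehicle, without overlap (-1.24 ± 0.44 SE, limma adjusted p = 0.219). Cxcl1 had 384 and 876 under JQ1, against 283 and 355 under vehicle, and Cxcl9 had 1092 and 3060.2 under JQ1, against 1089 and 1769 under vehicle. Neither difference, of 0.87 ± 0.45 and 0.40 ± 0.70 (SE), passed.

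The contrast tested directly was the JQ1 minus vehicle difference (the JQ1 effect) in macrophages minus that in T cells. It was positive and passed for 4 of 44 chemokine genes, where 4.22% of all genes passed in this direction, 1.41% in the other and 5.62% in either. The JQ1 effect in macrophages minus that in T cells was 5.93 ± 0.73 for Cxcr6, 7.09 ± 0.82 for Xcl1, 2.45 ± 0.33 for Ccr7 and 2.05 ± 0.39 for Cxcr3 (log2, SE), with limma adjusted p of 0.0184, 0.0184, 0.0201 and 0.0460. In the vehicle libraries Cxcr6 and Xcl1 were below a signal of 20 in macrophages, so a fall there could not have been measured. Both entered the test only through the vehicle T cell libraries. Ccr7 and Cxcr3 were above 20 in all 12 libraries, with Ccr7 at 85.2 and 126 in JQ1 macrophages, against 193 and 209 in vehicle macrophages. With paired libraries as a block only Xcl1 passed (limma adjusted p = 0.0357), and Ccr7, Cxcr6 and Cxcr3 had 0.0871, 0.0926 and 0.124. Over all genes 1.72% passed with that block. The count was 0 when either vehicle T cell library was left out, 2 chemokine genes passed without JQ1 T cell replicate 1 or vehicle macrophage replicate 1, and 5 passed without vehicle macrophage replicate 2. Ccl17, Ccl22 and Cxcl3 had the smallest p among negative values, at -2.10 ± 0.80, -0.56 ± 0.35 and -0.94 ± 0.76 (SE), and did not pass. Of the 19 T cell markers 11 passed in the positive direction, and the part of this in the chemokine results was not tested.

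**Figure D3:**
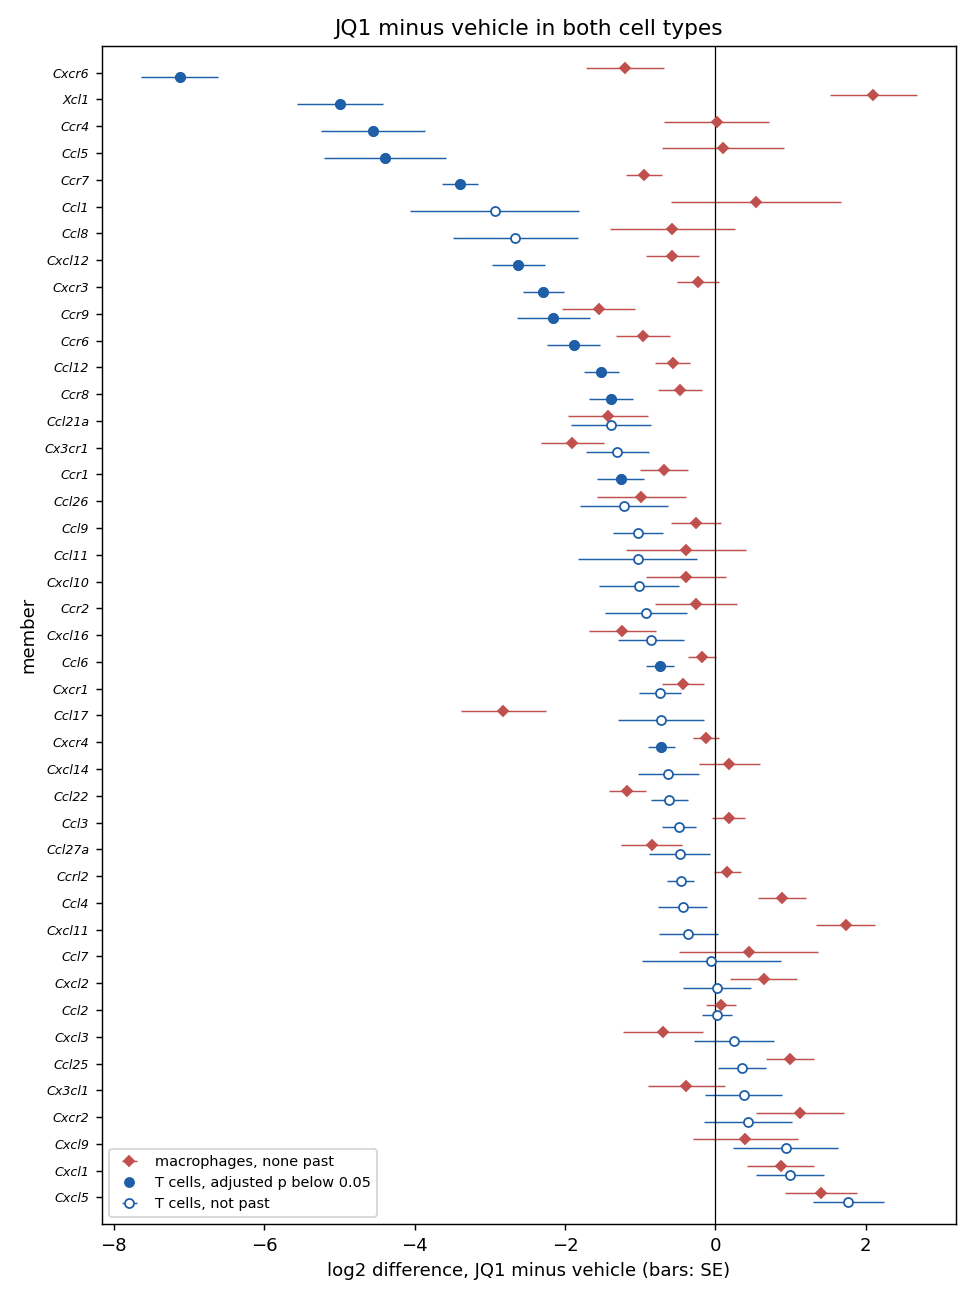
Log2 difference of JQ1 minus vehicle (points, with bars of 1 SE) for chemokine and receptor genes that were tested, in macrophages (red diamonds) and T cells (blue circles, filled where the limma adjusted p was below 0.05). The 14 filled circles all lie left of 0, and no macrophage point passed.

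The comparison between cell types asks which chemokine genes differ between the libraries labelled macrophages and T cells. Under vehicle, 2 of the 44 genes were higher in macrophages, where 5.94% of all genes were, and 11 were lower, where 18.1% were (24.1% in either direction). Both macrophage libraries lay above both T cell libraries for 9 genes, where 30.2% of all genes did, and below them for 25, where 39.5% did. Ccl22 had 747 and 939 in macrophages, against 179 and 195 in T cells (2.16 ± 0.25 SE, limma adjusted p = 0.00317). Ccr8 had 237 and 370.4 in macrophages, against 107 and 151 in T cells, without overlap (1.22 ± 0.29 SE, limma adjusted p = 0.0351). Ccl17 had 1023 and 1100.0 in macrophages, against 312 and 237 in T cells, and just missed the threshold (1.96 ± 0.57 SE, limma adjusted p = 0.0600).

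The genes lower in vehicle macrophages included receptors and ligands that T cells use. Cxcr6 had 4.96 and 5.03 in macrophages, against 508 and 667 in T cells, and was thus lower by at least 27.8-fold (limma adjusted p = 0.000875). Xcl1 had 2.06 and 3.06 in macrophages, against 119 and 172 in T cells, and was lower by at least 6.85-fold (limma adjusted p = 0.00261). Both genes were near the floor of the assay in every vehicle macrophage library. Ccr4 had 2.90 and 8.09 in macrophages, against 61.9 and 53.3 in T cells, lower by at least 2.78-fold (limma adjusted p = 0.0230). Ccl5 had 31.1 and 164 in macrophages, against 500.2 and 1071 in T cells, a log2 difference of -3.33 ± 0.81 (SE, limma adjusted p = 0.0358). Neither Ccr4 nor Ccl5 overlapped between the cell types, although the macrophage libraries differed widely in Ccl5.

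Cxcl5, an epithelial ligand, and Cx3cr1, a myeloid receptor, were also lower in vehicle macrophages. Cxcl5 had 2.06 and 5.03 in macrophages, against 36.5 and 34.2 in T cells, lower by at least 1.73-fold (limma adjusted p = 0.00858). Cx3cr1 had 138 and 265 in macrophages, against 1149.9 and 1200.2 in T cells, without overlap (-2.61 ± 0.42 SE, limma adjusted p = 0.0101). Ccl4, Ccr7, Ccl12 and Cxcl12 were also among the 11, with fitted log2 differences between -2.42 and -1.55. Of the 11, Cxcr6, Xcl1, Ccr4 and Cxcl12 exceeded 20 in the 8 libraries fitted only in vehicle T cells, and Cxcl5 only in T cells. These genes entered the test through T cell libraries and could not have come out as higher in macrophages. The count of 13 fell to 2 without either vehicle T cell library, or to 7 without replicate 1 and 5 without replicate 2 when the genes tested were held fixed. Of 19 T cell markers 18 were lower in the macrophage libraries, and of 18 macrophage markers 2 were higher and 2 lower. The macrophage markers summed to 1266090 to 1341190 in vehicle macrophages and 1406000 to 1429290 in vehicle T cells. Of 11 stromal and endothelial markers 5 were lower. The 3 epithelial markers summed to 3671 to 4316 in macrophages and 6442 to 7365 in T cells, and 1 of them passed as lower. The part of these differences in the chemokine results was not tested.

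Under JQ1, 4 of 44 genes were higher in macrophages than in T cells, where 9.22% of all genes were, and 3 were lower, where 14.8% were (24.1% in either direction). Both macrophage libraries lay above both T cell libraries for 17 genes, where 37.7% of all genes did, and below them for 12, where 26.9% did. Ccr8 had 239.6 and 191 in JQ1 macrophages, against 50.05 and 45.6 in JQ1 T cells (2.14 ± 0.29 SE, limma adjusted p = 0.00687). Ccl22 had 305 and 451 in macrophages, against 111 and 134 in T cells (1.60 ± 0.25 SE, limma adjusted p = 0.0108). Neither overlapped between cell types, as under vehicle. Cxcr3 had 72.5 and 68.3 in macrophages, against 25.8 and 39.4 in T cells (1.12 ± 0.28 SE, limma adjusted p = 0.0413). Ccl6 was higher by 0.77 ± 0.19 (SE, limma adjusted p = 0.0400). Under vehicle the Cxcr3 difference had the opposite sign, with 101 and 68.5 in macrophages, against 152 and 168 in T cells (-0.93 ± 0.28 SE, limma adjusted p = 0.0629).

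Among the genes lower under JQ1 in macrophages were Cxcl5 and Cx3cr1, which had passed in that direction under vehicle as well. Cxcl5 had 6.88 and 15.4 in macrophages, against 104 and 145 in T cells, lower by at least 5.89-fold (limma adjusted p = 0.00691). Cx3cr1 had 38.6 and 65.9 in macrophages, against 578 and 391 in T cells (-3.21 ± 0.42 SE, limma adjusted p = 0.00581). Neither overlapped, and both exceeded 20 in both JQ1 T cell libraries, where most T cell markers did not. All 3 epithelial markers were lower in JQ1 macrophages, with summed signals of 3662 to 4212 there and 16096 to 16246 in JQ1 T cells. Also lower were 3 of 19 T cell markers and 3 of 11 stromal and endothelial markers. Macrophage markers, 18 in number, had 3 higher and 2 lower. The part of these differences in the chemokine results was not tested. With paired libraries as a block 11 genes passed, 8 higher and 3 lower, and the call of Cxcr3 was lost (limma adjusted p = 0.0681). The count was 4 without vehicle T cell replicate 1, vehicle T cell replicate 2 or JQ1 T cell replicate 1. Between the cell types the split of calls moved with the scaling: centring each library on its median gave 6 higher and 12 lower under vehicle and 12 higher and 3 lower under JQ1, and quantile normalisation gave 8 higher and 9 lower under vehicle and 10 higher and 2 lower under JQ1. Of all genes 45.5% passed under vehicle and 46.6% under JQ1 after centring, and 31.1% under vehicle and 28% under JQ1 after quantile normalisation.

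**Figure D4:**
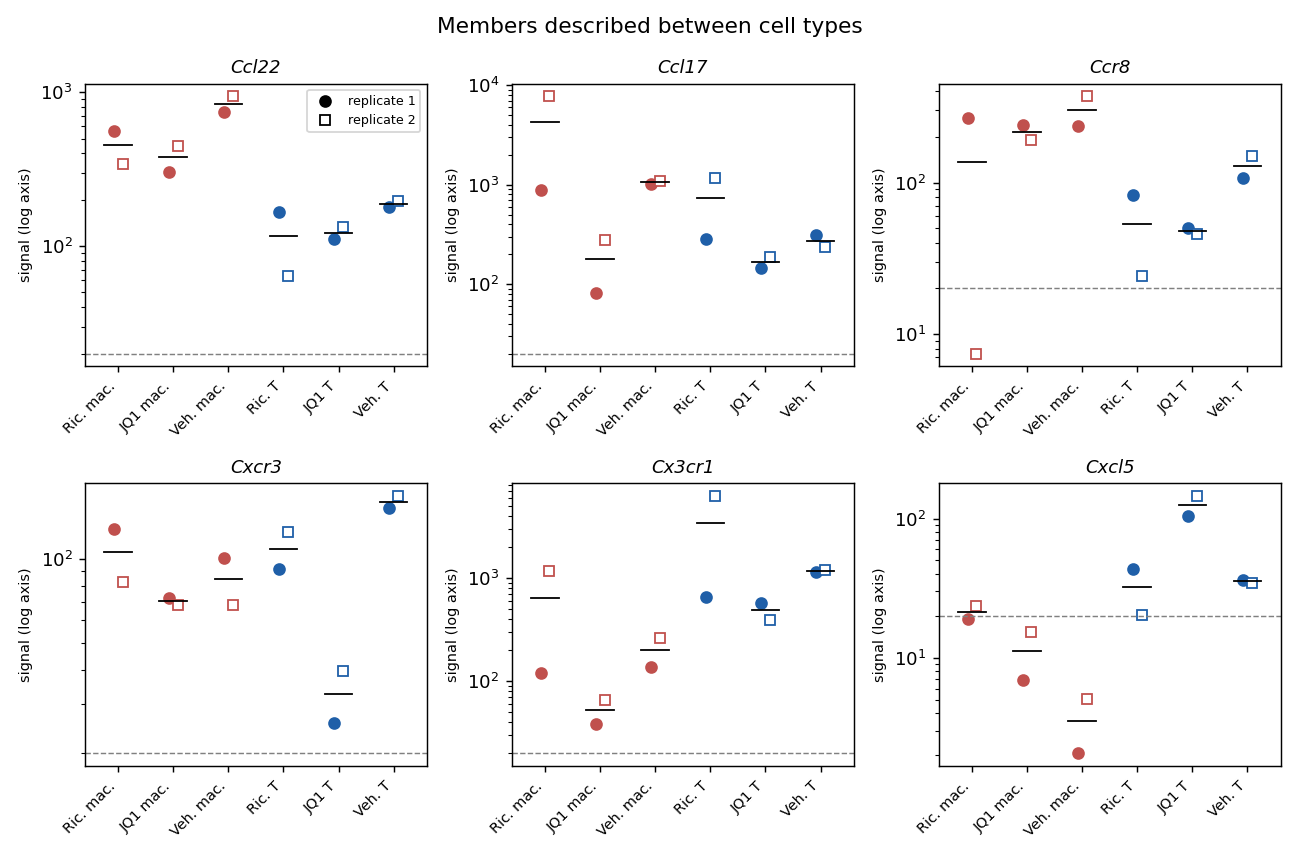
Normalised signal (log axis) of 6 genes described between cell types, in ricolinostat (Ric.), JQ1 and vehicle (Veh.) macrophages (red) and T cells (blue). Circles are replicate 1, squares replicate 2, bars the arithmetic mean and the dashed line a signal of 20; Ccl22 and Ccr8 are higher in vehicle and JQ1 macrophages than in T cells of the same treatment, and Cxcr3 lies higher in JQ1 macrophages than in JQ1 T cells but lower in vehicle macrophages than in vehicle T cells.

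The comparisons with ricolinostat ask how histone deacetylase inhibition altered the same genes, and they rest on a group whose replicates disagreed. Limma called 0 of 36 chemokine genes between ricolinostat and vehicle macrophages and 0 of 43 in T cells, where 0% of all genes tested passed in each. At an unadjusted p below 0.05 there were 2 of 36 and 2 of 43, and 16 of 564 and 18 of 630 over all genes tested. Without ricolinostat replicate 2 the counts stayed at 0 in both cell types. Without ricolinostat replicate 1, in contrast, 24 passed in macrophages and 22 in T cells, where 65.8% and 60.1% of all genes did, so these counts depended on which library stood for the treatment. Both ricolinostat libraries lay above both vehicle libraries for 3 of 36 genes in macrophages (12.6% of all genes) and below them for 6 (15.2%), and in T cells above them for 1 of 43 (9.52%) and below them for 17 (28.7%).

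In macrophages Cxcl14, a chemokine of epithelia, had 950.5 and 17458 under ricolinostat, against 466 and 788 under vehicle (2.75 ± 1.40 SE). Ccl25 had 26.2 and 238 under ricolinostat, against 10.8 and 18.2 under vehicle (2.43 ± 1.11 SE). Both owed most of their mean to replicate 2. Cxcr1, a receptor of neutrophils, had 3066 and 253 under ricolinostat, against 8276 and 6649.9 under vehicle (-3.07 ± 1.22 SE), and -1.27 without replicate 2. Ccr8 had 265 and 7.41 under ricolinostat, against 237 and 370.4 under vehicle, and overlapped. Ccl6 had 56948 and 12341 under ricolinostat, against 65059 and 67246 under vehicle (-1.32 ± 0.87 SE). All of these had a limma adjusted p of 0.570.

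In T cells Cxcr6, Ccr7 and Cxcr3 stood below both vehicle libraries in both ricolinostat libraries. Cxcr6 had 326 and 172 in ricolinostat T cells, against 508 and 667 in vehicle T cells, and Ccr7 had 369.6 and 132 under ricolinostat, against 684 and 551 under vehicle. The difference for Ccr7 was -1.47 ± 0.65 (SE), or -0.73 without replicate 2. Cxcr3 had 91.9 and 125 under ricolinostat, against 152 and 168 under vehicle. Ccl8, a monocyte attractant, had 5.68 and 2.36 under ricolinostat, against 32.5 and 47.0 under vehicle, and Cxcr1 had 2315 and 550.3 under ricolinostat, against 4666 and 5449 under vehicle. These 2 genes had the smallest unadjusted p, 0.0193 and 0.0361 by limma. Higher on average were Ccr2, at 542 and 1610.1 under ricolinostat, against 584 and 263 under vehicle, Cxcl9, at 678 and 2500.4 under ricolinostat, against 553 and 512 under vehicle, and Ccl17, at 287 and 1178 under ricolinostat, against 312 and 237 under vehicle. In all 3 replicate 2 had the highest signal, and Ccr2 and Ccl17 overlapped. Without replicate 2 the log2 differences were 0.47 for Ccr2, 0.35 for Cxcl9 and 0.07 for Ccl17. The limma adjusted p of every chemokine gene named in this comparison was 0.657.

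Set against JQ1, ricolinostat T cells were higher in 2 of 43 chemokine genes, where 2.86% of all 630 genes tested were, and lower in 0, where 0.159% were (3.02% in either direction). Both ricolinostat libraries lay above both JQ1 libraries for 16 of the 43 (33.7% of all genes) and below them for 4 (11.6%). Cxcr6 had 326 and 172 in ricolinostat T cells, against 5.84 and 1.55 in JQ1 T cells, at least 11.3-fold higher (limma adjusted p = 0.0225). Ccr4 had 19.5 and 56.4 under ricolinostat, against 1.43 and 1.55 under JQ1, without overlap (limma adjusted p = 0.0416). Ricolinostat replicate 1 was itself below a signal of 20 for Ccr4, so no bound on its fold difference can be given. Ccl1, the Ccr8 ligand, had 88.5 and 70.8 under ricolinostat, against 15.8 and 17.8 under JQ1, without overlap (2.17 ± 0.48 SE, limma adjusted p = 0.105). Cxcl5 had 43.6 and 20.4 under ricolinostat, against 104 and 145 under JQ1, and Cxcr2 had 226 and 24.0 under ricolinostat, against 576 and 288 under JQ1. Cxcr1 was lower in the same manner, and none of these 3 passed (limma adjusted p = 0.226, 0.437 and 0.482). Without ricolinostat replicate 2, Cxcr6, Ccr4, Ccr7, Cxcl12 and Ccl1 passed, all higher, where 4.17% of all genes did. That fit has 1 ricolinostat library, and its spread comes from the JQ1 and vehicle libraries. The count was 26 without ricolinostat replicate 1, where 65.1% of all genes passed, and 0 without either JQ1 or either vehicle T cell library. Of the 19 T cell markers 7 were higher in ricolinostat than in JQ1 T cells, with a summed signal of 3897 to 6519 under ricolinostat, against 355 to 411 under JQ1. The comparison shares its JQ1 libraries with JQ1 against vehicle.

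In macrophages 0 of 36 chemokine genes passed between ricolinostat and JQ1, where 0% of all genes did. By limma 2 had an unadjusted p below 0.05, as did 35 of all 564 genes tested. Both ricolinostat libraries lay above both JQ1 libraries for 7 of the 36 (27.3% of all genes) and below them for 3 (9.57%). Ccl17 had 891 and 7741 under ricolinostat, against 80.9 and 275 under JQ1, and Cx3cr1 had 121 and 1164 under ricolinostat, against 38.6 and 65.9 under JQ1. Both genes stood higher in both ricolinostat libraries. Cxcr1 and Cxcr2 stood lower in both, at log2 differences of -2.64 ± 1.22 and -3.39 ± 1.63 (SE). Cxcl1 overlapped, with 638 and 1.34 under ricolinostat, against 384 and 876 under JQ1. The limma adjusted p of each of these genes was 0.584. Without ricolinostat replicate 2 the count stayed at 0, and without replicate 1 it was 21, where 63.4% of all genes passed.

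The departure of ricolinostat replicate 2 was alike in both cell types. Of the 52 chemokine genes 6 were over 4-fold higher in replicate 2 than in replicate 1 in macrophages and in T cells, and 4 were over 4-fold lower in both. Those shares of 11.5% and 7.69% compare with 15.6% and 11.04% of all 770 genes, so the chemokine genes did not stand out. Cxcl14, Cx3cr1, Ccl3, Ccl25 and Ccl17 were among the higher ones. Cxcl14 had 17458 in replicate 2 and 950.5 in replicate 1 of macrophages, and 9439 in replicate 2 and 802 in replicate 1 of T cells. Ccl3, a ligand made by activated macrophages, had 35182 and 4588 in macrophages and 26025 and 4485 in T cells, in the same order. Cxcl1, Cxcr2, Ccl9 and Cxcr1 were the 4 lower ones. Cxcl1 had 1.34 in replicate 2 and 638 in replicate 1 of macrophages, and 3.60 in replicate 2 and 739 in replicate 1 of T cells. The replicate differences in macrophages and T cells correlated across the 52 genes (Pearson r = 0.720) and across all genes (r = 0.775), as a description over genes of the same 4 libraries. Housekeeping genes differed as widely between these replicates, with an SD of the log2 difference of 2.66 in macrophages and 2.10 in T cells, against 0.124 to 0.199 in the other groups.

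**Figure D5:**
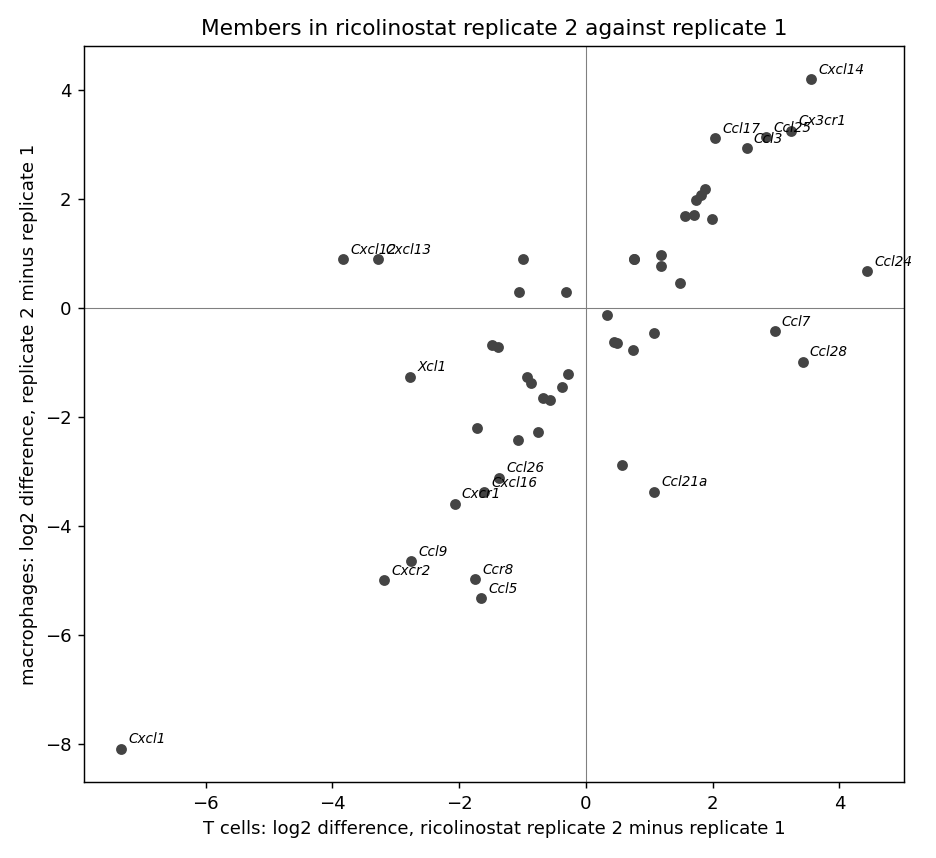
Each point is a chemokine or receptor gene, placed by the log2 difference of ricolinostat replicate 2 minus replicate 1 in T cells (x axis) and in macrophages (y axis). Cxcl1 lies at the lower left and Cxcl14 at the upper right, and most genes share the sign of the difference in both cell types.

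Genes that act with chemokines outside these families were followed through a list of 34, of which 19 are on the panel and 17 were tested with the chemokine genes. In JQ1 T cells 1 of the 17 rose and 3 fell against vehicle, where 4.22% of all genes rose and 15.8% fell. Dpp4, a peptidase that trims several chemokines, averaged 2562 ± 24.9 under JQ1, against 635 ± 44.6 under vehicle (SD, n = 2 each), a log2 difference of 2.01 ± 0.20 (SE, limma adjusted p = 0.00283). The complement receptor C3ar1 and Selplg, a ligand for leukocyte rolling on vessels, fell by 1.96 and 0.87 on the log2 scale. In JQ1 macrophages 0 of 17 passed, where 0.469% of all genes did. Between vehicle macrophages and T cells 4 of the 17 were lower in macrophages (among them Dpp4, C3ar1 and the platelet chemokine Ppbp) and 0 higher. Over all genes 18.1% were lower and 5.94% higher. Under JQ1 4 were lower (Dpp4, C3ar1, Cmklr1 and Gpr183) and the integrin chain Itgb2 was higher, where 14.8% of all genes were lower and 9.22% higher. For the JQ1 effect in macrophages minus that in T cells, 1 of the 17 passed as positive and 1 as negative. Over all genes 4.22% were positive and 1.41% negative. The negative one was Dpp4, at -2.72 ± 0.28 (macrophages minus T cells, log2, SE). None passed in the ricolinostat comparisons, where 3.02% of all genes passed against JQ1 in T cells and 0% in each of the others.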

How the data were processed

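RNA of 12 libraries was counted on a NanoString panel. Each value of the deposited table is a normalised signal on a linear scale. This unit was inferred from the values, and how the authors normalised them is not stated in the labels. Low values of each library lie on a lattice, and its step gave the estimated counts above background. Replicates were numbered in record order.

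Group differences came from limma 3.58.1 (R 4.3.3), fitted to log2(signal + 1), with Benjamini-Hochberg adjustment over all genes tested and a threshold of 0.05. Genes needed a signal above 20 in 2 or more of the fitted libraries, and 20 housekeeping genes were left out. JQ1, vehicle and cell type comparisons were fitted in 8 libraries without ricolinostat, and ricolinostat comparisons in the 6 libraries of a cell type. The code was tested on simulated data. The members, lists and tests were chosen with earlier results of these data known. Genes are named where they are among the 6 highest or lowest past the threshold, up to 3 by smallest p where fewer than 3 pass, or on a fixed list of 24 receptors and ligands; other genes named were chosen after their values were seen. Some listed genes are counted but not otherwise reported here. Alternatives changed the pseudocount, filter, scaling, variance model, libraries and pairing.

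T cell and macrophage libraries of 1 treatment were taken as pairs in an alternative. The last of the running numbers in their labels differs by a constant 6. The first was 33 and 34 in ricolinostat replicate 2 and ran from 8 to 21 in the other libraries. Within pairs its difference was constant in those other libraries and smaller in ricolinostat replicate 2. The deviations of paired libraries from group means correlated at 0.790 under ricolinostat, 0.250 under JQ1 and 0.135 under vehicle over 659 genes. Promoters come from RefSeq (GRCm38.p6), with entries for 39 of the 52 genes. Plots were made in Python 3.11.15 with matplotlib 3.10.9.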

Additional observations from a re-analysis of the deposited data

Results flagged for a closer look

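For 4 genes the difference between JQ1 and vehicle libraries, called the JQ1 effect here, was unlike in the cell types (limma adjusted p below 0.05 for the contrast). The effect in macrophages minus that in T cells was 7.09 ± 0.82 for Xcl1, made of 2.10 in macrophages and -4.99 in T cells. It was 5.93 ± 0.73 for Cxcr6, made of -1.20 in macrophages and -7.13 in T cells. It was 2.45 ± 0.33 for Ccr7, made of -0.95 and -3.40, and 2.05 ± 0.39 for Cxcr3, made of -0.24 and -2.29, in the same order (log2, SE). Cxcr6 and Xcl1 were below a signal of 20 in all JQ1 and vehicle macrophage libraries, so their macrophage values rest on the pseudocount and a fall there could not have been measured. The libraries labelled JQ1 T cells also lacked most T cell markers, and the part of that in these differences was not tested.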

How the results depend on the processing

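The count of 14 chemokine genes lower in JQ1 than in vehicle T cells was 5 when all 12 libraries were fitted and 5 when the 6 T cell libraries were. Over all genes tested 5.61% and 5.56% passed in those fits, in place of 20%. The 13 genes that differed between vehicle macrophages and T cells became 6 with all 12 libraries, and the replicate block gave 16. The 7 that differed under JQ1 became 15 after centring on library medians, 12 after quantile normalisation, 1 with all 12 libraries and 11 with the replicate block. Over all genes 46.6% passed after centring, 28% after quantile normalisation and 5.46% with all 12 libraries, in place of 24.1%. The 4 genes with a different JQ1 effect in the cell types became 1 with all 12 libraries and 1 with the replicate block. That block ended no call of a named gene beyond those given in the text. Over all genes 0.91% passed with all 12 libraries and 1.72% with the block, in place of 5.62%. Ricolinostat against JQ1 in T cells had 2 genes, and 1 with a pseudocount of 10, after centring, after quantile normalisation, or with trended and robust variances. The cause of these changes was not tested. Centring moved the median log2 difference of all genes between JQ1 and vehicle T cells to -0.03, in place of -0.37.

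Leaving out each library in turn gave 0 to 13 calls for JQ1 against vehicle in T cells (4 to 13 with the genes tested held fixed), 0 to 1 in macrophages, 2 to 14 between cell types under vehicle (5 to 14 held fixed), 4 to 7 under JQ1 and 0 to 5 for the difference of JQ1 effects. For JQ1 against vehicle and for the difference of JQ1 effects, the calls over all genes moved with the library left out as well. The cause was not tested. For ricolinostat the range was 0 to 24 against vehicle in macrophages, 0 to 22 in T cells (23 held fixed), 0 to 21 against JQ1 in macrophages and 0 to 26 in T cells, each highest without ricolinostat replicate 1. Of the genes named, Cxcl1 between ricolinostat and JQ1 macrophages had a log2 difference of -3.91, -7.96 without ricolinostat replicate 1 and, with the sign reversed, 0.14 without ricolinostat replicate 2. Holding the genes fixed was chosen after the data were seen.

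With 2 libraries in a group the precision is limited, and a signal of 20 stands for as few as 2.70 counts. Genes at or under 20 in a whole group have only a bound. Macrophage markers were abundant in every T cell library, so differences between the cell types cannot be read as those of pure populations. The JQ1 T cell libraries lacked most T cell markers, and both ricolinostat replicate 2 libraries stood apart, so that level differences in those groups cannot be told apart from differences in what was purified or in the library.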
